A study of Mus musculus with 207 samples.

Results

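Mice of the Collaborative Cross (CC) breeding population whose cecal RNA was rich in smooth muscle transcripts were set against mice whose RNA was poor in them. The score of a mouse was the mean, over 4 genes of contractile smooth muscle (Acta2, Tagln, Myh11 and Des), of the gene's z-score across mice, where a z-score is the distance from the mean of all mice in units of their SD. The 49 mice with the highest scores (called muscle-high here) and the 49 with the lowest (called muscle-low) were taken from 199 scored mice of 207 in the series, and the rest are called middle mice. The muscle-high mice were 21 females and 28 males of 39 breeding lines, with a mean score of 0.875 ± 0.321 (SD). The muscle-low mice were 24 females and 25 males of 45 breeding lines, with a mean score of -0.943 ± 0.546 (SD). The middle mice were 50 females, 49 males and 2 mice of unclear sex. No treatment, strain or genotype separates these groups, which were read from the RNA itself: all were adult mice of incipient CC lines, descended from a cross of 8 inbred founder strains and still being inbred, and no age was given. The score has no gap at the limits of the groups, since the last muscle-high mouse scored 0.500 and the next mouse 0.494, and the last muscle-low mouse scored -0.372 and the next -0.370.

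Each mouse had 1 array, an Illumina bead chip of the mouse genome, and the values are log2 intensities. The protocol describes cells released from the cecum by filling it with a chelating solution and collected as a pellet, a way of collecting epithelium. The source is given as tissue of the cecum. How much muscle entered each preparation was not recorded in the sources used here. In RNA from a mixed tissue, fewer cells of a type and less RNA per cell cannot be told apart.

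Smooth muscle cells form the outer muscle coat and the thin muscle layer under the epithelium of the gut. They contract when calcium, bound to calmodulin, activates myosin light chain kinase, which phosphorylates the regulatory light chain of smooth muscle myosin so that myosin pulls on filaments of smooth muscle actin and tropomyosin. Many genes of this apparatus carry CArG boxes, short DNA elements bound by serum response factor (SRF), which acts there together with its coactivator myocardin.

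Array medians lay between 73.5 and 97.9 intensity units in muscle-high mice (median 79.4) and between 71.7 and 90.1 in muscle-low mice (median 77.6). On the log2 scale they averaged 6.34 ± 0.10 and 6.30 ± 0.09 (SD), a difference of 0.04 (two-sided permutation test, p = 0.0634, adjusted p = 0.235 over 4 tests of the score and the arrays). The brighter end of the arrays differed more, with log2 95th percentiles of 10.08 ± 0.11 in muscle-high and 10.01 ± 0.11 in muscle-low mice (SD; difference 0.07, two-sided permutation test, p = 0.00488, a test added after seeing the data). Array brightness thus moves with the score, and its part in the results was not tested beyond the covariate fits given below. On 8 arrays, 3 muscle-high, 3 muscle-low and 2 middle, the mean correlation with the other arrays was below 0.871, where all 199 arrays ranged between 0.834 and 0.946. For 3 of 197 mice, 1 muscle-high and 2 muscle-low, the sex-linked transcripts were at odds with the sex label. Background was set at a mean log2 level of 6.31, a limit that 95% of 1542 chemoreceptor probes (for smell, pheromones and taste) did not reach, and 21658 of 45281 probes (47.8%) lay above it.

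The 4 score genes, whose values chose the mice, are described here without a test. Acta2, smooth muscle alpha-actin, ranged between 13.39 and 15.19 log2 units in muscle-high mice (median 14.46) and between 12.32 and 14.34 in muscle-low mice (median 13.64). Tagln, the actin-binding protein transgelin, ranged between 8.79 and 10.87 in muscle-high mice (median 9.72) and between 7.01 and 9.47 in muscle-low mice (median 8.68). Myh11, the heavy chain of smooth muscle myosin, ranged between 10.77 and 12.79 in muscle-high mice (median 11.72) and between 9.28 and 11.83 in muscle-low mice (median 10.72). Des, the muscle intermediate filament protein desmin, ranged between 10.39 and 12.81 in muscle-high mice (median 11.13) and between 9.09 and 10.97 in muscle-low mice (median 10.26). The groups overlapped for each gene taken alone, although they do not overlap in the score. The mean differences amounted to 1.75-fold for Acta2, 2.27-fold for Tagln, 1.99-fold for Myh11 and 2.06-fold for Des.

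**Figure D1:**
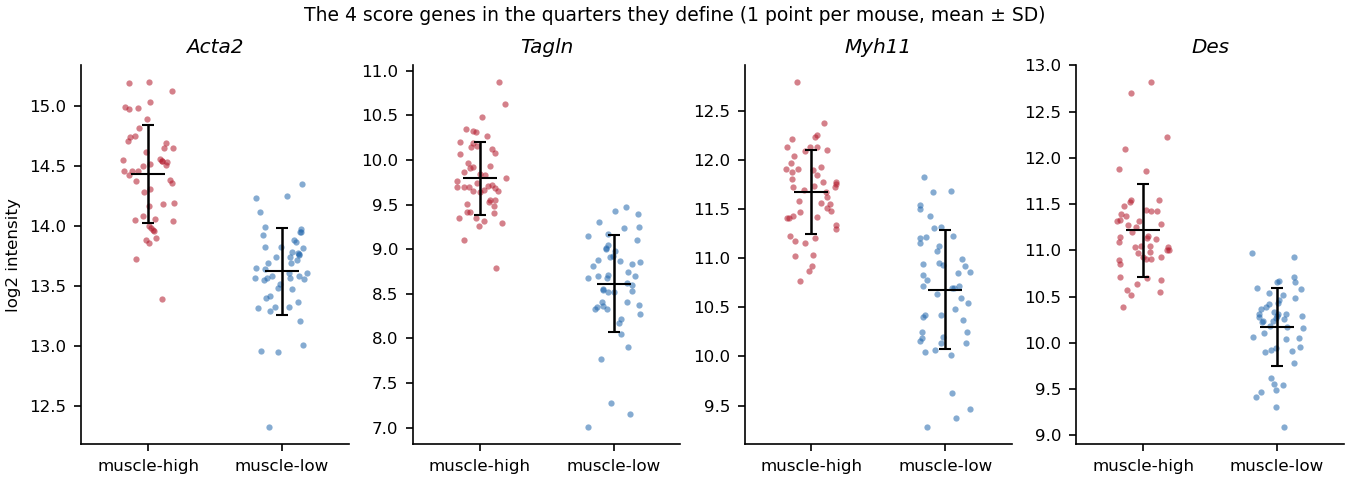
Log2 intensity (vertical axes, 1 scale per gene) of the 4 score genes in muscle-high and muscle-low mice, with 1 point per mouse and bars for the mean ± SD of 49 mice each. The groups were chosen on these values, and single mice of both groups still overlap for each gene, as for Acta2 between 13.39 and 14.34.

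The 4 genes tracked each other only in part over the 199 mice. Tagln and Des had the closest relation (Pearson's r = 0.69, Spearman's coefficient 0.68) and Myh11 and Des the loosest (r = 0.24, Spearman's coefficient 0.16), with Acta2 and Myh11 at r = 0.45, all values from the same arrays. A further bright Acta2 probe followed the scored one (r = 0.81 over the 199 mice), with 12.29 ± 0.53 in muscle-high and 11.39 ± 0.47 in muscle-low mice (SD, n = 49 each). The remaining pair of Acta2 probes well above background varied widely over the 199 mice (SD of 1.18 and 1.31) and followed the scored probe weakly (r = 0.15 and 0.22). Probes that lie over founder SNPs are included here.

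When each score gene was left out of the score that forms the groups, its level could be set against the other 3, again as a description without a test, since all 4 genes belong to the rule. Tagln averaged 9.66 ± 0.45 in the 49 mice highest for the other 3 genes and 8.73 ± 0.62 in the 49 lowest (SD), a difference of 0.94. The differences of Des, Myh11 and Acta2 formed in this way were 0.67, 0.59 and 0.49. These groups shared between 39 and 42 muscle-high and between 40 and 44 muscle-low mice with those of the score of all 4 genes. Of all probes, 1.62% were called between the groups formed without Tagln, 1.45% without Des and 4% without Acta2, but 36.2% without Myh11, so the groups formed without Myh11 differed in a large share of all transcripts.

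Outside the score genes, more probes were higher than lower in muscle-high mice, by a margin that depended on the scaling and on the score. Of 45270 other probes, 510 were higher in muscle-high mice (1.13%) and 80 were lower (0.177%) at an adjusted p under 0.05 in limma, and a log2 difference of 0.5 or more was reached by 90 of the higher probes (0.199%) and 2 of the lower ones (0.00442%). Counted by gene, with each gene represented by its brightest probe, 380 of 19053 genes were higher (1.99%) and 41 lower (0.215%). Among the 11840 genes above background these were 373 higher (3.15%) and 41 lower (0.346%). Since the groups come from the same arrays, a call says that a transcript varied along the score and nothing of what made it vary. Without the arrays that stand apart, 444 probes were higher and 97 lower. Without the 3 mice at odds with their sex label, 596 were higher and 97 lower. After quantile normalization of the arrays, 2851 probes were higher and 1628 lower, and 231 of the 510 and 18 of the 80 were still among them. With the score formed without Acta2, 1042 were higher and 767 lower, and without Myh11 12406 and 3969. Named genes were followed through 18 alternative settings on most mice, and the text says how many of these a call held in, or which ended it, for the list genes so followed that did not hold in all. The called list members beyond the naming rule (such as Lmod1, Cnn1, Myl6, Pln and Prph) were not followed in this way. With the 95th percentile of each array as a covariate, 320 probes were higher and 50 lower, of which 277 and 29 had also been called without it.

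The clearest group among the higher genes was that of smooth muscle itself. Smooth muscle genes form the score, and the lists were chosen with earlier results of these data known, so such calls were likely from the start. Of all genes above background, 3.15% were called higher. In 7 lists of smooth muscle genes without the 4 score genes, 37 genes were higher (35.6%, against 1.99% of all genes), 67 did not pass and none was lower. At an unadjusted p under 0.05, 55 of these genes passed and again none was lower, where 6618 of all 45270 probes passed. The median log2 difference over all of them was 0.16, against 0.02 over all genes, and 84 differences were positive.

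Of the thin and thick filament proteins, 8 of 13 were higher, with a median difference of 0.38. Actg2, the gamma-actin of enteric smooth muscle, ranged between 11.82 and 15.74 in muscle-high mice (median 13.78) and between 11.34 and 13.61 in muscle-low mice (median 12.84). Its difference was 0.94 (95% interval 0.71 to 1.17, adjusted p = 2.98e-09), and 27 muscle-high mice lay above every muscle-low mouse. Actg2 had the largest difference of all genes called. Myl9, the regulatory light chain that the kinase phosphorylates, ranged between 9.03 and 11.80 in muscle-high mice (median 10.98) and between 8.37 and 11.14 in muscle-low mice (median 10.15), a difference of 0.87 (adjusted p = 7.41e-07). Tpm2, beta-tropomyosin, ranged between 10.69 and 12.51 in muscle-high mice (median 11.50) and between 9.05 and 11.53 in muscle-low mice (median 10.89), a difference of 0.72 (adjusted p = 3.04e-08). Of the remaining called members, smoothelin (Smtn) differed by 0.61, the myosin alkali light chain Myl6 by 0.55, alpha-tropomyosin (Tpm1) by 0.54, leiomodin (Lmod1), which nucleates actin filaments, by 0.37 and calponin (Cnn1) by 0.36. Caldesmon (Cald1), which restrains myosin on the filament, did not pass, with 8.26 ± 0.94 in muscle-high and 7.88 ± 0.78 in muscle-low mice (SD, n = 49 each, adjusted p = 0.288). The call of Smtn held in 17 of 18 settings and ended with the score formed without Myh11 (difference 0.17). The nonmuscle myosins Myh9 and Myh10 differed by 0.12 and 0.06 and did not pass.

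Sequence before a transcript start of some of these genes shows the element that SRF binds. The stretches below are RefSeq sequence of GRCm38.p6, chosen because they hold the boxes of a score gene, of 3 genes higher in muscle-high mice and of Srf itself, and the capitals mark each box. A CArG box was taken as CC, then 6 bases that are each A or T, then GG, a pattern that reads the same on both strands. The boxes of Acta2 and Flnc differ from that pattern by 1 base, and those of Myl9, Fhl1 and Srf match it fully.

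Acta2 (chr19:34255383-34255472, minus strand): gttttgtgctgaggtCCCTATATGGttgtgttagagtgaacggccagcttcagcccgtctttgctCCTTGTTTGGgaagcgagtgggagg
Flnc (chr6:29432975-29433014, plus strand): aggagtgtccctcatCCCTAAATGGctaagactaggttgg
Myl9 (chr2:156775288-156775327, plus strand): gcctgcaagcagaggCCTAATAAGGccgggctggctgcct
Fhl1 (chrX:56779566-56779605, plus strand): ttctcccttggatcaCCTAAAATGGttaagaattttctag
Srf (chr17:46556200-46556259, minus strand): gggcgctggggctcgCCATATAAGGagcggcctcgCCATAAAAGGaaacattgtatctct

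The boxes start 84 and 34 bases before the start of Acta2, 163 bases before that of Flnc, 161 before that of Myl9, and 82 and 62 before that of Srf. Genes with a promoter in the table were searched within 250 bases before the start, and a gene counted if any of its promoters held a box. A full box stood in 18 of 290 genes higher in muscle-high mice (6.21%) and in none of 30 lower genes. Of all genes tested, 230 of 15235 had one (1.51%). At a share of 1.51%, the absence of a full box from 30 genes says little. With 1 other base allowed, a box stood in 54 of the 290 (18.6%), in 4 of the 30 (13.3%) and in 1450 of the 15235 (9.52%). Of the 82 genes chosen to be named by the rule given with the methods, 63 had a promoter in the table, 4 of them with a full box. That count of 4 left promoters on chromosome 18, where Usp14 and Camk4 lie, unsearched. A match describes the letters of the window and says nothing of binding in these mice.

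Of the kinases, phosphatase subunits and their regulators that set the phosphorylation of myosin, 5 of 12 were higher, with a median difference of 0.15. Mylk, myosin light chain kinase, ranged between 12.02 and 13.87 in muscle-high mice (median 13.23) and between 11.26 and 13.51 in muscle-low mice (median 12.53). Its difference was 0.71 (SE 0.08, adjusted p = 1.35e-09), and 46 of 49 muscle-high mice lay above the muscle-low median. Further Mylk probes above background differed by 0.80 and 0.68. Hspb6 and Hspb1, small heat shock proteins of muscle, differed by 0.58 and 0.56, and the call of Hspb1 ended with the score formed without Myh11 (0.26). Prkg1, the cyclic GMP-dependent kinase that relaxes smooth muscle, differed by 0.51 (adjusted p = 0.00794), a call that held in 13 of 18 settings and a difference that turned to -0.050 after quantile normalization, a scaling under which 9.89% of all probes were called. Ppp1r14a, an inhibitor of myosin phosphatase, differed by 0.47. The myosin phosphatase genes Ppp1r12a, Ppp1cb and Ppp1r12b had differences between -0.03 and 0.23 and did not pass.

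Of the proteins that anchor the filaments at the membrane, 8 of 26 were higher, with a median difference of 0.21. Pdlim3, a PDZ and LIM protein that binds alpha-actinin, ranged between 11.08 and 12.52 in muscle-high mice (median 11.71) and between 9.59 and 11.55 in muscle-low mice (median 10.94). All 49 muscle-high mice lay above the muscle-low median and 34 muscle-low mice lay below every muscle-high mouse, for a difference of 0.83 (SE 0.07, adjusted p = 1.64e-14). Pdlim3 had the lowest adjusted p among the genes named here. Fhl1, a LIM-domain protein of muscle, ranged between 10.59 and 12.38 in muscle-high mice (median 11.41) and between 9.18 and 11.78 in muscle-low mice (median 10.63), a difference of 0.71 (adjusted p = 2.12e-08). Also higher were the actin cross-linker filamin A (Flna) by 0.61, tensin (Tns1) by 0.60, Pdlim7 and the caveolar protein Cav1 by 0.51 each, Parva by 0.38 and the integrin subunit Itga7 by 0.20. The widest gap in this list belonged to Csrp1, a LIM protein of smooth muscle, but its levels spread over 9.63 ± 1.73 in muscle-high and 8.63 ± 1.50 in muscle-low mice (SD, n = 49 each) and it did not pass (adjusted p = 0.103). The call of Flna ended with the score formed without Myh11 (0.25). Vinculin (Vcl), the link between integrins and actin, had 10.75 ± 0.77 in muscle-high and 10.76 ± 0.50 in muscle-low mice (SD, n = 49 each, adjusted p = 0.982).

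Of 4 genes listed for the intermediate filaments of mesenchyme, 2 were higher. Synm, which encodes the desmin partner synemin, ranged between 7.37 and 11.96 in muscle-high mice (median 10.89) and between 6.77 and 11.22 in muscle-low mice (median 10.16), a difference of 0.79 (adjusted p = 0.000136). A further bright Synm probe differed by 0.76, while a pair near background, at mean levels of 6.41 and 6.40, differed by 0.06 and 0.02. Dmpk, a kinase of muscle listed there, differed by 0.57, a call that held in 16 of 18 settings and ended with the scores formed without Acta2 or Myh11, while vimentin (Vim), the intermediate filament protein of mesenchymal cells in general, differed by 0.08 and nestin (Nes) by -0.03, and neither passed.

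Of the channel and calcium genes, 6 of 15 were higher, with a median difference of 0.23. Mrvi1, the target through which Prkg1 holds back calcium release, differed by 0.55 (8.72 ± 0.35 in muscle-high and 8.17 ± 0.31 in muscle-low mice, SD, n = 49 each). The calcium release channel Ryr2 differed by 0.39. The partners of the ATP-sensitive potassium channel of smooth muscle both rose, Abcc9 by 0.34 and Kcnj8 by 0.33, and the call of Kcnj8 held in 12 of 18 settings. Phospholamban (Pln) differed by 0.32 and junctophilin (Jph2) by 0.29. The calcium channel subunit Cacna1c and the potassium channel subunit Kcnma1 had differences of 0.07 and 0.08 and did not pass.

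Of the receptors and their regulators, 5 of 16 were higher, with a median difference of 0.07. Rgs5, a brake on G protein signalling that also marks pericytes, ranged between 7.06 and 10.26 in muscle-high mice (median 8.85) and between 6.78 and 10.09 in muscle-low mice (median 8.06), a difference of 0.71 (adjusted p = 0.00376). The endothelin receptor Ednrb differed by 0.64, the serotonin receptor Htr2b by 0.37, the muscarinic receptor Chrm2 by 0.34 and Rasl12 by 0.26. The calls of Rgs5 and Ednrb held in 16 and 17 of 18 settings, and both ended after quantile normalization. Chrm3, the muscarinic receptor that drives contraction, and the tachykinin receptor Tacr2 had differences of 0.03 and 0.06 and did not pass.

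Of the transcription factors of smooth muscle, 3 of 18 were higher, with a median difference of 0.05. Myocd, the coactivator myocardin, ranged between 6.45 and 9.58 in muscle-high mice (median 7.61) and between 6.55 and 8.13 in muscle-low mice (median 6.89), a difference of 0.56 (SE 0.11, adjusted p = 0.000202). After quantile normalization the difference of Myocd was 0.14 and its call ended, the single setting of 18 in which it did. Nkx2-3, a homeobox factor of gut mesenchyme, differed by 0.28 and Srf by 0.26 (9.31 ± 0.28 in muscle-high and 9.05 ± 0.26 in muscle-low mice, SD, n = 49 each), with calls that held in 15 and 17 of 18 settings. Mef2c, a factor of muscle lineages, had a difference of 0.44 that did not pass (adjusted p = 0.181), and the SRF coactivators Mrtfa and Mrtfb had differences of 0.02 and 0.05.

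Among the 15 genes with the largest positive differences, several are not parts of the contractile apparatus. Krt17, a keratin known from stratified epithelia, ranged between 7.09 and 10.24 in muscle-high mice (median 8.16) and between 6.36 and 8.19 in muscle-low mice (median 7.35), a difference of 0.90 (adjusted p = 3.74e-10). Pcp4l1, a relative of a calmodulin-binding peptide, ranged between 8.48 and 10.72 in muscle-high mice (median 9.28) and between 6.69 and 9.31 in muscle-low mice (median 8.49), a difference of 0.89 (adjusted p = 2.42e-10). The growth factor pleiotrophin (Ptn) ranged between 8.00 and 11.04 in muscle-high mice (median 8.61) and between 6.96 and 9.41 in muscle-low mice (median 7.96), a difference of 0.83, and all 49 muscle-high mice lay above the muscle-low median. The same held for Fxyd6, a regulator of the sodium pump, with a difference of 0.73 (adjusted p = 6.45e-09). Galectin-1 (Lgals1) differed by 0.85 with wide spread (10.35 ± 1.04 in muscle-high and 9.50 ± 0.84 in muscle-low mice, SD, n = 49 each). Neuromedin U (Nmu), a peptide that contracts gut muscle, differed by 0.78 and the matrix proteoglycan osteoglycin (Ogn) by 0.75. Further Ogn probes above background differed by 0.37 and 0.47 and did not pass. The differences of Lgals1, Nmu and Ogn were 0.11, 0.34 and -0.044 after quantile normalization, and none of these calls held there. Over the 18 settings they held in 15, 17 and 12.

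The score was set up to describe an axis between muscle and epithelium, and the epithelial genes were read for an opposite course. Over 6 lists of epithelial genes, 5 of 109 measured genes were higher in muscle-high mice (4.59%, against 1.99% of all genes) and none was lower in limma (against 0.215% of all genes, so rare a call that a count of 0 says little). Their median difference was 0.03, and 22 passed an unadjusted p under 0.05, of which 3 were lower. Of all 45270 probes tested, 6618 passed that limit. Lower calls did appear in other settings, with 4 of the 109 after quantile normalization (against 3.6% of all probes there), 3 with the score formed without Acta2 (1.69%), 2 for the slope over all mice (1.6%), 1 after subtraction of the 5th percentile (0.247%) and 12 with the score formed without Myh11 (8.77%). Among 27 genes of epithelial identity, none passed in limma in either direction (2 higher and 2 lower at an unadjusted p under 0.05), the median difference was 0.01, and the 95% interval lay within 0.5 log2 units of 0 for 23. Krt8, a keratin of the gut epithelium, ranged between 13.04 and 14.52 in muscle-high mice (median 13.88) and between 12.32 and 14.97 in muscle-low mice (median 13.93). Krt20, a keratin of mature colonocytes, ranged between 11.89 and 13.65 in muscle-high mice (median 12.68) and between 10.62 and 13.96 in muscle-low mice (median 12.64). The groups overlapped over nearly their whole range for both keratins. Cdh1, the cadherin that joins epithelial cells, had a difference of 0.13 (adjusted p = 0.558). Epcam, an adhesion molecule of epithelial cells, came closest to an opposite course, with 7.09 ± 0.98 in muscle-high and 7.57 ± 0.79 in muscle-low mice (SD, n = 49 each), a difference of -0.48 (95% interval -0.83 to -0.13, adjusted p = 0.173). With the score formed without Myh11, 5 of the 27 identity genes were higher and 7 lower, where 27.4% of all probes were higher and 8.77% lower.

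The 5 epithelial genes that did rise belong to different cell types. Guca2a, the peptide guanylin of absorptive and goblet cells, differed by 0.38 (15.14 ± 0.43 in muscle-high and 14.77 ± 0.61 in muscle-low mice, SD, n = 49 each, adjusted p = 0.0412). Gcnt3, an enzyme of mucin glycosylation, differed by 0.55 (adjusted p = 0.0143). The peptide-processing genes Cpe and Scg5, of enteroendocrine cells and neurons, differed by 0.51 and 0.36, and Dclk1, a kinase of tuft cells and neurons, by 0.26. Of 18 settings, the call of Guca2a held in 9, that of Scg5 in 11 and those of Gcnt3, Cpe and Dclk1 in 16 each, so none of the 5 held in all of them. Muc2, the main mucin of goblet cells, had 13.96 ± 0.92 in muscle-high and 13.94 ± 0.69 in muscle-low mice (SD, n = 49 each), a difference of 0.02 that did not pass. Car1, a carbonic anhydrase of colonocytes, ranged between 13.33 and 15.98 in muscle-high mice (median 14.94) and between 9.42 and 15.61 in muscle-low mice (median 14.68), with 3 muscle-low mice below every muscle-high mouse. The Car1 difference of 0.46 did not pass (adjusted p = 0.191). No gene of 26 for the cell cycle passed (3 lower and none higher at an unadjusted p under 0.05), with a median difference of -0.08. Of all genes 1.99% were called higher and 0.215% lower, and 6618 of 45270 probes passed an unadjusted p under 0.05.

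**Figure D2:**
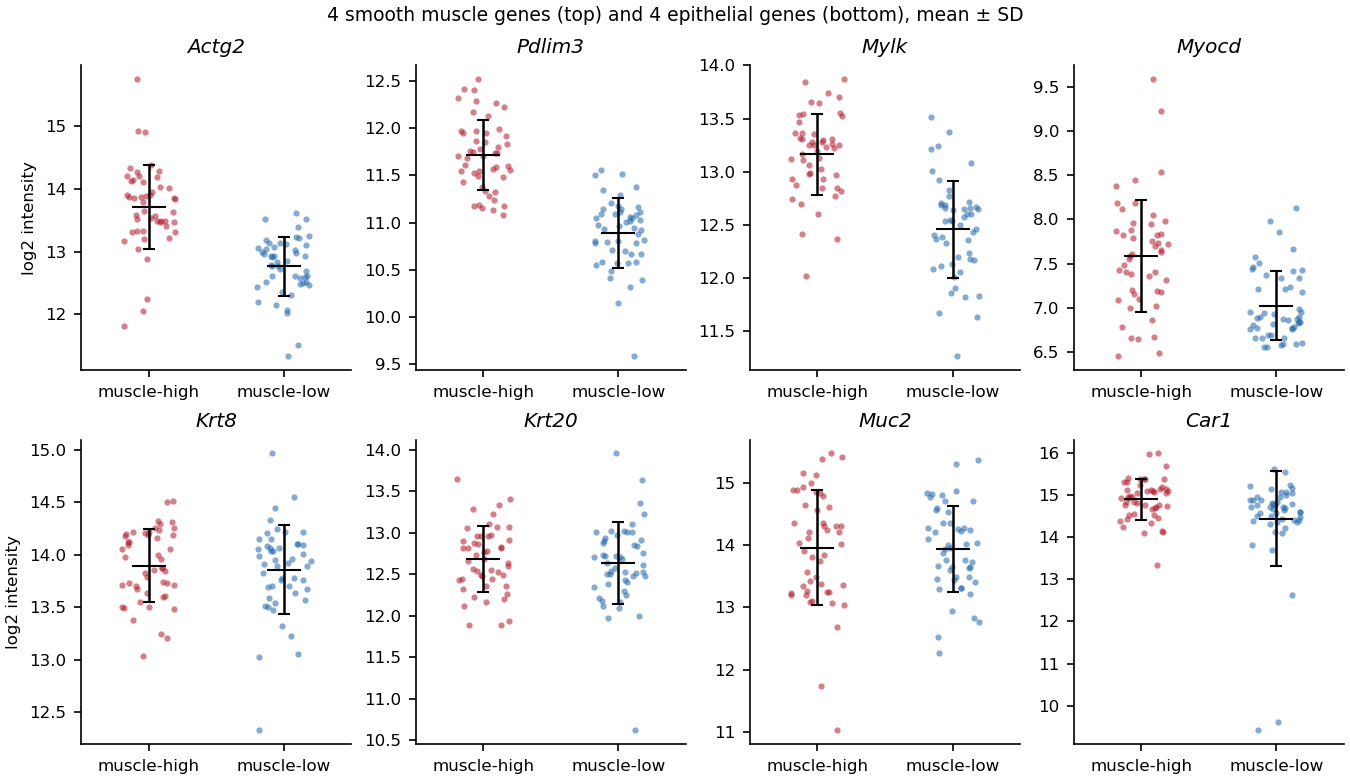
Log2 intensity (vertical axes, 1 scale per gene) of 4 smooth muscle genes (top) and 4 epithelial genes chosen after their values were seen (bottom) in muscle-high and muscle-low mice, with 1 point per mouse and bars for the mean ± SD of 49 mice each. The smooth muscle genes are shifted, as Pdlim3 by 0.83, while Krt8, Krt20 and Muc2 differ by 0.04, 0.05 and 0.02. Car1 differs by 0.46, with wide spread in muscle-low mice, and did not pass.

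Genes of cell types within the muscle coat were called in part, where 1.99% of all genes were called higher. Of the enteric neuron genes, 5 of 20 were higher (25%), with a median difference of 0.12, while 12 passed an unadjusted p under 0.05. That limit was passed by 6618 of all 45270 probes. Syt1, a sensor of synaptic release, differed by 0.32, Stmn2, a tubulin regulator of neurites, by 0.29, Gap43 of growing axons by 0.28, the RNA-binding protein Elavl4 by 0.17 and peripherin (Prph) by 0.14. Vip, a relaxing neuropeptide, had 10.77 ± 0.70 in muscle-high and 10.32 ± 0.63 in muscle-low mice (SD, n = 49 each) and did not pass (adjusted p = 0.0615). Of 6 genes of enteric glia none passed in limma, while 4 were higher at an unadjusted p under 0.05. Of 7 genes of the interstitial cells of Cajal, the pacemaker cells of gut muscle, Etv1 and the gap junction gene Gja1 were higher by 0.49 and 0.45. Of 18 settings, the call of Syt1 held in 17, that of Gap43 in 16, that of Gja1 in 13, that of Elavl4 in 11 and that of Etv1 in 10. The defining pacemaker genes Kit and Ano1 had differences of -0.21 and 0.04 and did not pass.

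Fibroblast and matrix genes were higher in 6 of 27 cases (22.2%, against 1.99% of all genes), with a median difference of 0.21. After Ogn these were the calcification inhibitor Mgp with 0.53, the protease inhibitor Timp3 with 0.41, Sparc with 0.40 and Mfap5 and Serping1 with 0.30 each. The calls of Mgp, Timp3 and Sparc held in 15 of 18 settings each, and all of them ended with the scores formed without Tagln or without Des. Further Sparc probes differed by 0.24 and 0.09 and did not pass. Of 13 collagen genes only Col4a1, a basement membrane collagen, passed, with 9.60 ± 0.65 in muscle-high and 9.09 ± 0.46 in muscle-low mice (SD, n = 49 each, adjusted p = 0.00308), a call that ended with the score formed without Des. The fibrillar collagens Col1a1 and Col3a1 differed by -0.03 and 0.26 and did not pass. Of 22 endothelial and pericyte genes, Rgs5 and Cav1, which also stand in the smooth muscle lists, were called, and Pecam1, Cdh5, Kdr and Pdgfrb had differences between -0.06 and 0.09. The summed level of the fibroblast list, as its mean over genes in a mouse, ranged between 8.21 and 9.26 in muscle-high and between 7.94 and 9.07 in muscle-low mice, and its part in the smooth muscle differences was not tested.

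Of the signals known to pattern gut mesenchyme, 3 of 23 Hedgehog and Wnt genes were higher (against 1.99% of all genes). Gli3 and Gli2, which relay Hedgehog signals from the epithelium, differed by 0.38 and 0.19 and the Wnt modulator Dkk3 by 0.32, while the Hedgehog target genes Gli1 and Ptch1 had differences of 0.05 and 0.03 and did not pass. Of 26 TGF-beta and BMP genes, 2 were called higher (7.69%), Bmp4 with a difference of 0.29 and its antagonist Chrd with 0.18. The call of Bmp4 held in 9 of 18 settings and ended with breeding line as a random block (adjusted p = 0.0793). The matrix protein Ccn2 was the single called gene of 19 in the immediate early list, with a difference of 0.56. Of 18 settings, the call of Gli2 held in 18, that of Gli3 in 17 and those of Dkk3, Chrd and Ccn2 in 14 each. Of 10 adipocyte genes, Plin4 of lipid droplets was higher by 0.49, a call that held in 11 of 18 settings, and adiponectin (Adipoq) had a difference of 0.49 that did not pass. Of 13 skeletal muscle genes, Ckm, the muscle creatine kinase, was higher by 0.26 and Acta1, the skeletal muscle actin, had a difference of 0.04.

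No gene of 58 for B and plasma cells, T and NK cells, macrophages and granulocytes, and mast cells passed in limma (5 at an unadjusted p under 0.05), with a median difference of 0.03. Of all genes 1.99% were called higher and 0.215% lower, so the absence of calls says little. An unadjusted p under 0.05 was reached by 6618 of all 45270 probes, to be set beside the unadjusted counts given here. Of 18 macrophage and granulocyte genes, 7 were higher with the score formed without Myh11 (27.4% of all probes higher). After quantile normalization 2 of them were lower (3.6% of all probes lower). No gene for ribosomal proteins or the respiratory chain passed in limma, against the same shares of all genes. The 22 nuclear genes of the respiratory chain had a median difference of 0.15, and 8 were higher at an unadjusted p under 0.05. The median difference was 0.22 over 18 ribosomal protein genes, of which 7 were higher at an unadjusted p under 0.05, but it was -0.10 after quantile normalization. The 8 mitochondrially encoded transcripts had a median of 0.32, with 5 higher at an unadjusted p under 0.05, and, after quantile normalization, of -0.15. ATP6 reached the largest difference of these, 0.80, with 13.63 ± 1.38 in muscle-high and 12.83 ± 1.56 in muscle-low mice (SD, n = 49 each, adjusted p = 0.174). With the score formed without Myh11, 12 of the 18 ribosomal protein genes were higher (27.4% of all probes higher).

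**Figure D3:**
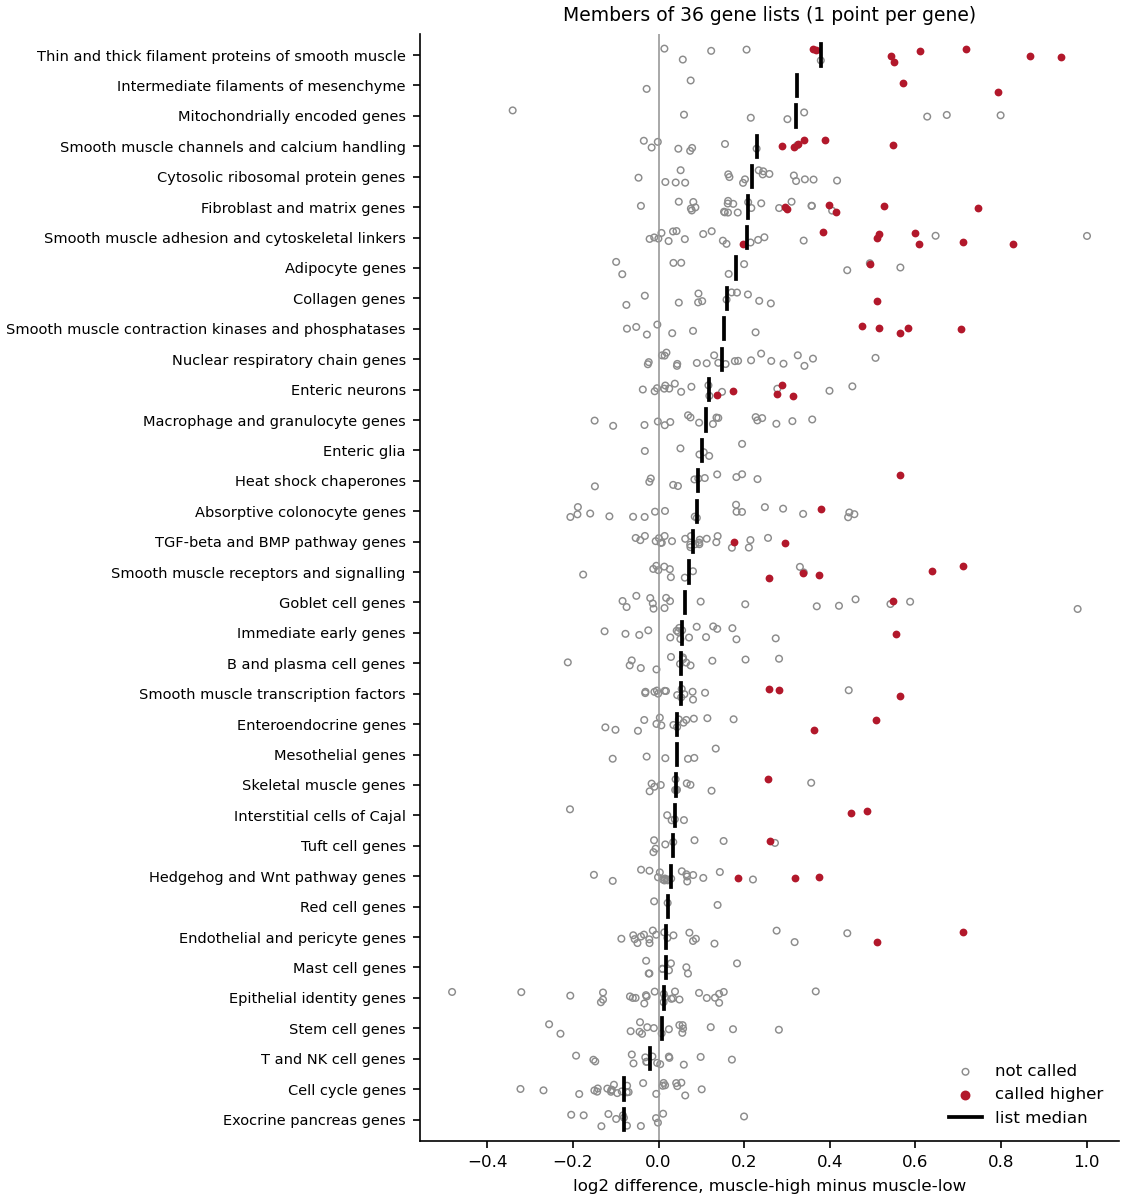
Log2 difference of each gene between muscle-high and muscle-low mice (horizontal axis, muscle-high minus muscle-low) in 36 gene lists, with filled points for genes called at an adjusted p under 0.05, open points for the others and bars for list medians. The thin and thick filament genes have the highest median (0.38), while epithelial identity genes centre on 0.01 with no gene called.

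The genes lower in muscle-high mice were fewer. All 41 lay outside the 36 lists, as did 316 of the 380 higher genes. The lists hold a small part of all genes tested, so the absence of the 41 from them says little. D17H6S56E-5 ranged between 6.26 and 9.07 in muscle-high mice (median 7.55) and between 6.38 and 11.28 in muscle-low mice (median 8.43), a difference of -0.86 (adjusted p = 0.000765), and 6 of 49 muscle-high mice lay above the muscle-low median. The deubiquitinase Usp25 fell by 0.53 and Srrm2, a protein of the spliceosome, by 0.50. Hjurp, the chaperone of the centromeric histone, ranged between 7.98 and 10.31 in muscle-high mice (median 9.21) and between 8.24 and 10.61 in muscle-low mice (median 9.61), a difference of -0.46 (adjusted p = 0.0134). Elk4, a partner of SRF at genes of the growth response, fell by 0.41, with 8.06 ± 0.51 in muscle-high and 8.47 ± 0.42 in muscle-low mice (SD, n = 49 each, adjusted p = 0.0045). The other 10 of the 15 largest were Zc3h7a, the proteasome-bound deubiquitinase Usp14, the chaperone Hyou1, A730008H23Rik, BC005537, the kinase Camk4, the helicase Dqx1, the RNA-editing enzyme Adar, choline kinase (Chka) and Phf21b, with differences between -0.41 and -0.27. The calls of these 15 held in between 7 and 17 of the 18 settings, and after quantile normalization Zc3h7a, Camk4 and Chka were the ones still called. Hyou1, BC005537, Dqx1 and Adar turned to 0.070, 0.052, 0.022 and 0.013 after quantile normalization. With breeding line as a random block the calls of Usp14 and BC005537 ended (adjusted p = 0.0663 and 0.0519). With all 207 arrays kept, 3 probes were called lower.

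Over all 199 scored mice, the genes whose level followed the score most closely were Pdlim3 (r = 0.765), Tpm1 (r = 0.66), Pcp4l1 (r = 0.657), the filamin of muscle Flnc (r = 0.654) and Actg2 (r = 0.646). The most inverse were Pidd1, a protein of the DNA damage response (r = -0.396), the kinetochore protein Dsn1 (r = -0.394), the lysolipid transporter Mfsd2a (r = -0.371), the tubulin acetyltransferase Atat1 (r = -0.358) and Slc28a2b (r = -0.356). These are descriptions over mice measured on the same arrays as the score. Pidd1 lay between 5.45 and 6.55 in muscle-high and between 6.02 and 6.67 in muscle-low mice, close to the background of 6.31. Mfsd2a and Slc28a2b were not called between the groups (adjusted p = 0.0712 and 0.295), and they reached 10.20 and 9.48 in muscle-low mice, against muscle-low medians of 6.53 and 6.18.

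The middle mice, which the comparison of muscle-high with muscle-low mice did not use, span scores between -0.370 and 0.494. No probe had a slope on the score that passed there in limma (0%, with 2858 probes, 6.31%, at an unadjusted p under 0.05). Actg2 had a slope of 0.78 log2 units per unit of score (unadjusted p = 5.34e-05, adjusted p = 0.786), Mylk of 0.50, Pdlim3 of 0.39 and Tpm1 of 0.34. Of the 373 higher genes above background, 335 had a positive slope in the middle mice. Of the 41 lower genes 38 had a negative slope, where 6487 of all 11840 genes were positive. These slopes were taken on scores made from the same arrays, so a shared sign is not an independent check. Such a sign says that a gene varied along the score there too, and nothing of what made it vary. The part of array brightness in these signs was not tested. Among the smooth muscle genes 83 had a positive slope and 21 did not, and among the epithelial genes 52 had one and 57 did not. Synm was an exception, with a slope of -0.41.

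A relation between the scores of line mates was not shown. Over 84 lines with a scored female and male, the scores of line mates correlated with r = 0.16 (two-sided permutation test, p = 0.148, adjusted p = 0.235 over 4 tests) and a Spearman coefficient of 0.15 (p = 0.169). Once the 2 lines whose female scores lay farthest from the female median were left out, r was 0.15. Within the high number series of the animal identifications r was 0.30 (37 lines, p = 0.0741) and within the low series 0.05 (47 lines, p = 0.728). Keeping the arrays with values below 0 gave r = 0.22 over 91 lines (p = 0.0369), the single setting in which this correlation passed. Of 85 lines with exactly 2 scored mice, 10 had both in the muscle-high group, 4 had both in the muscle-low group and 8 had 1 mouse in each.

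**Figure D4:**
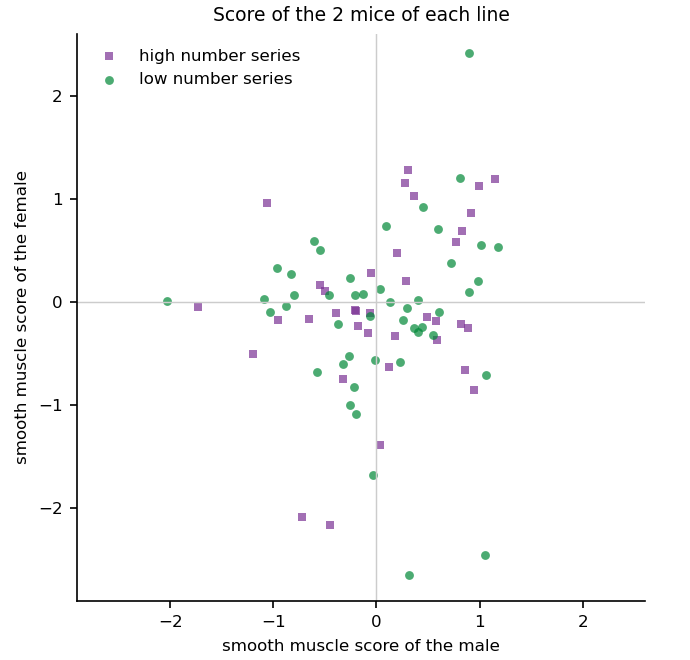
Smooth muscle score (mean z-score) of the female (vertical axis) against that of the male (horizontal axis) of 84 breeding lines, with squares for lines of the high number series and circles for lines of the low series. The points scatter widely (r = 0.16).

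The mates of muscle-high mice (41 mice, of which 20 were muscle-high themselves) were set against the mates of muscle-low mice (42 mice), and no probe passed in limma (0%, with 1124 probes, 2.48%, at an unadjusted p under 0.05). Restricted to mates from the middle group, 13 against 26 mice, no probe passed either (0%, with 896 probes, 1.98%, at an unadjusted p under 0.05). Of the 373 higher genes 246 then had a positive difference and of the 41 lower genes 31 a negative one, where 6130 of all 11840 genes were positive. Pdlim3 had a difference of 0.20 and Actg2 of -0.19 between these mates.

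Females scored -0.08 ± 0.79 (SD) and males 0.07 ± 0.67 (SD), over 197 mice, a difference of -0.14 that did not pass (two-sided permutation test, p = 0.176, adjusted p = 0.235). Within the high and the low number series the differences were -0.10 and -0.18. Mice of the high number series scored 0.03 ± 0.73 (SD, n = 87) and mice of the low series -0.02 ± 0.74 (SD, n = 111), a difference of 0.04 (p = 0.677), which turned to -0.045 after quantile normalization. No probe had a difference between the muscle groups that changed with sex (0%, with 870 probes, 1.92%, at an unadjusted p under 0.05) or with the number series (0%, with 1025 probes, 2.26%). Within females alone 150 probes were higher and 8 lower, and within males alone 100 were higher and 1 lower. All 510 of the probes called higher in the full comparison were positive in both. Their selection in these same mice made that sign likely, so it says little about either sex.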

How the data were processed

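Linear intensities of 45281 probes on 207 arrays were used as the authors deposited them, made from Illumina scans in BeadStudio 3.0.19, where rank-invariant normalization was applied and background was not subtracted. Probes over founder SNPs were not removed. 8 arrays with intensities below 0 were left out, the other intensities were raised to a floor of 16 and put on the log2 scale. The score, its 4 genes and the gene lists were chosen with earlier results of these data known. A gene was represented by its probe with the highest mean, and named through the platform annotation updated to RefSeq (34885 probes with 1 gene, 18 with several, 10378 with none). limma 3.58.1 (lmFit and eBayes, R 4.3.3) compared the groups over the 45270 probes outside the score genes, with Benjamini-Hochberg adjustment. Each mouse is 1 sample, and line mates share ancestry. The number of arrays limits the precision.

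The genes named were the score genes, the 15 with the largest called differences in each direction above background, up to 4 called members of each list, members of the smooth muscle lists with a described role, and the 5 that followed the score most closely in each direction. Genes outside this rule, among them the epithelial genes without a call, were named after their values were seen. Scores were compared by permutation (100000 draws). The leading number of a mouse's identification was taken as its line, and its closing number, under or over 100, as its number series, whose meaning no source used here gives. The alternatives were quantile normalization, the 5th percentile of an array subtracted (offset 16), a floor of 32, a background filter, all arrays kept, sex, number series, array median, line as a block, scores without each gene, narrower groups and the slope over all mice. Those added after seeing the data were the 95th percentile and the first principal component as covariates, leaving out 8 arrays that stand apart or 3 mice at odds with their sex label, and the mates of the middle group. The scripts were tested on simulated data. The rest ran in Python 3.11.15, with pandas 2.3.3 and numpy 2.4.6 for tables, scipy 1.17.1 for statistics and matplotlib 3.10.9 for figures.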

Additional observations from a re-analysis of the deposited data

How the results depend on the processing

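Probes called higher and lower numbered 510 and 80. They numbered 2851 and 1628 after quantile normalization, 2699 and 112 after subtraction of the 5th percentile, 728 and 178 among probes above background, and 381 and 3 with all arrays kept. Scores without Acta2 gave 1042 and 767, without Tagln 540 and 195, without Myh11 12406 and 3969, and without Des 488 and 168, so the number of calls depends on which genes form the score, most on Myh11. The cause was not tested. The first principal component of the arrays had an absolute correlation of 0.119 with the score and of 0.358 with the score without Myh11. Narrower groups, 38 mice in all, gave 227 and 4, the slope over all mice 1858 and 726, and the 95th percentile as a covariate 320 and 50. Smaller sets of mice gave 150 and 6 in the low number series, 86 and 7 in the high series, 150 and 8 in females, and 100 and 1 in males. Breeding line as a random block gave 482 and 67, and as a fixed block, which leaves 9 lines and 18 mice, 0 and 0 in limma (2132 probes at an unadjusted p under 0.05). In the settings on most mice, smooth muscle genes called higher numbered between 32 and 56 (30 in the narrower groups), with none lower except 2 without Myh11. Epithelial genes numbered between 1 and 30 higher and between 0 and 12 lower of 109. The largest of these counts, for both kinds of genes, came without Myh11, where 27.4% of all probes were higher and 8.77% lower. The smallest higher counts on most mice came with the 95th percentile as a covariate, where 0.707% of all probes were higher. Of 76 named genes with a call, 24 kept it in all 18 settings on most mice, among them Actg2, Myl9, Tpm2, Tpm1, Mylk, Pdlim3, Fhl1, Flnc, Synm, Krt17, Pcp4l1, Ptn and Fxyd6.

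Under the fixed block the differences of Lgals1, Sparc and Bmp4 turned to -0.10, -0.10 and -0.19, and those of Phf21b and BC005537 to 0.077 and 0.00428. After quantile normalization those of Ogn and Prkg1 turned to -0.044 and -0.050, those of Hyou1, BC005537, Dqx1 and Adar to 0.070, 0.052, 0.022 and 0.013, and the difference in score between the high and low number series to -0.045. The correlation of line mates was 0.22 with all arrays kept. The middle slope and the line mates gave no call under any alternative tried for them. Signal near background limits Pidd1, Dsn1, Atat1, Slc28a2b, Mfsd2a, Elavl4, Chrd and Ckm, at mean log2 levels between 6.20 and 6.61.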

Other observations

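Some genes outside the lists also stood among the higher genes, chosen here after their values were seen and with no test as a group. Of 38 Hox genes measured, 24 lay above background and 3 were higher in muscle-high mice (against 1.99% of all genes and 3.15% of those above background), with a median difference of 0.05 over the 38. Hoxd10, a Hox gene of the hindgut and limb, had 9.10 ± 0.44 in muscle-high and 8.44 ± 0.57 in muscle-low mice (SD, n = 49 each), a difference of 0.66 (limma, adjusted p = 2.08e-06), while Hoxc9 differed by 0.22 and Hoxd9 by 0.18. Meis1 and Meis2, homeobox cofactors of Hox proteins, differed by 0.52 and 0.51. Cdkn1c, an inhibitor of the cell cycle, differed by 0.66 and Hspb8, a small heat shock protein, by 0.70. F13a1, a clotting factor subunit made by macrophages, differed by 0.67 although no gene of the macrophage list passed.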
